A study of Caenorhabditis elegans with 12 samples.

Results

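Metal-handling genes of Caenorhabditis elegans were followed through 4 genotypes of whole worms. The 8 genes are the metallothionein genes mtl-1 and mtl-2, the ferritin genes ftn-1 and ftn-2, the metal-ion importer genes smf-1, smf-2 and smf-3, and the cadmium-responsive gene cdr-1. They were taken by gene name from the deposited table of read counts, which lists 46936 genes and holds all 8. Of the 15575 genes with enough counts to be tested, 7 belong to the group, because smf-2 had too few counts.

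Metallothioneins are small cysteine-rich proteins that bind zinc, cadmium and copper, and in C. elegans both genes are known for their induction by cadmium in the intestine. Ferritin is a protein shell that stores iron, and in the worm the intestinal gene ftn-1 is known to be turned down when iron is scarce, with the hypoxia factor HIF-1 taking part in that control. SMF proteins are the worm's divalent metal transporters of the NRAMP family, which carry manganese and iron across membranes, and CDR-1 is an intestinal lysosomal protein that protects worms against cadmium.

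The series measured total RNA by sequencing in worms that carry both mutations (daf-2lf;skn-1gf, called the double mutant), in daf-2lf, in skn-1gf and in wild type, with 3 libraries per genotype and 12 in all. In worm nomenclature lf and gf stand for loss and gain of function. DAF-2 is the insulin/IGF-1 receptor of the worm, whose loss of function lengthens life through the transcription factor DAF-16, and SKN-1 is an Nrf-family factor that switches on detoxification genes. All worms were grown on NGM agar and fed OP50 bacteria, and the labels give no allele, sex, age or stage for any group. The study asked how the transcriptome of the double mutant departs from that of daf-2lf, and the other genotypes show the effect of each mutation by itself.

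Library totals ran from 16779245 to 29346039 counts. Levels are given as CPM, the count per 1e6 counts of the library's total after scaling by the trimmed mean of M-values (TMM), and 3 counts correspond to 0.105 to 0.192 CPM. Differences are fitted log2 changes with their standard errors (SE), tested with edgeR's quasi-likelihood test over all tested genes, and a change is called where the Benjamini-Hochberg adjusted p is under 0.05. The mutated genes are transcribed in every genotype and so do not check the labels: skn-1 averaged 220.2 CPM in the double mutant, 172 in daf-2lf, 149 in skn-1gf and 118 in wild type, and daf-2 averaged 127, 92.7, 91.9 and 67.5 CPM in these genotypes. The daf-2 mean in daf-2lf hides a wide spread, with 26.8 CPM in replicate 1 and 125 and 126 CPM in replicates 2 and 3. Double-mutant libraries had 123 to 130.1 CPM of daf-2. The library of daf-2lf replicate 1 stands apart, since its departure from the other daf-2lf libraries ran with gene length (Spearman correlation across genes -0.66, against -0.35 to 0.27 in libraries of the other genotypes). Values without it, and with a length trend fitted in each library, are given where they change a result. Nothing in the labels says that replicates came from separate cultures, so p-values measure only the spread between these libraries.

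The 8 genes spanned a wide range of abundance. Per kilobase of gene length, ftn-2 was the most abundant, at mean levels of 452 CPM per kilobase in the double mutant, 597 in daf-2lf, 661 in skn-1gf and 468 in wild type. The metallothionein gene mtl-2 came next in every genotype, at 64.3 CPM per kilobase in the double mutant, 99.7 in daf-2lf, 65.7 in skn-1gf and 71.9 in wild type. The order below these differed between genotypes. Double-mutant worms had ftn-1 at 27.1, smf-1 at 11.5, cdr-1 at 10.1, mtl-1 at 7.68 and smf-3 at 2.59 CPM per kilobase. In wild type ftn-1 was at 17.8, smf-1 at 10.5, smf-3 at 3.53, cdr-1 at 1.44 and mtl-1 at 0.296 CPM per kilobase. Whole worms were sequenced, so fewer cells of a type and less RNA per cell cannot be told apart in any of these levels.

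**Figure D1:**
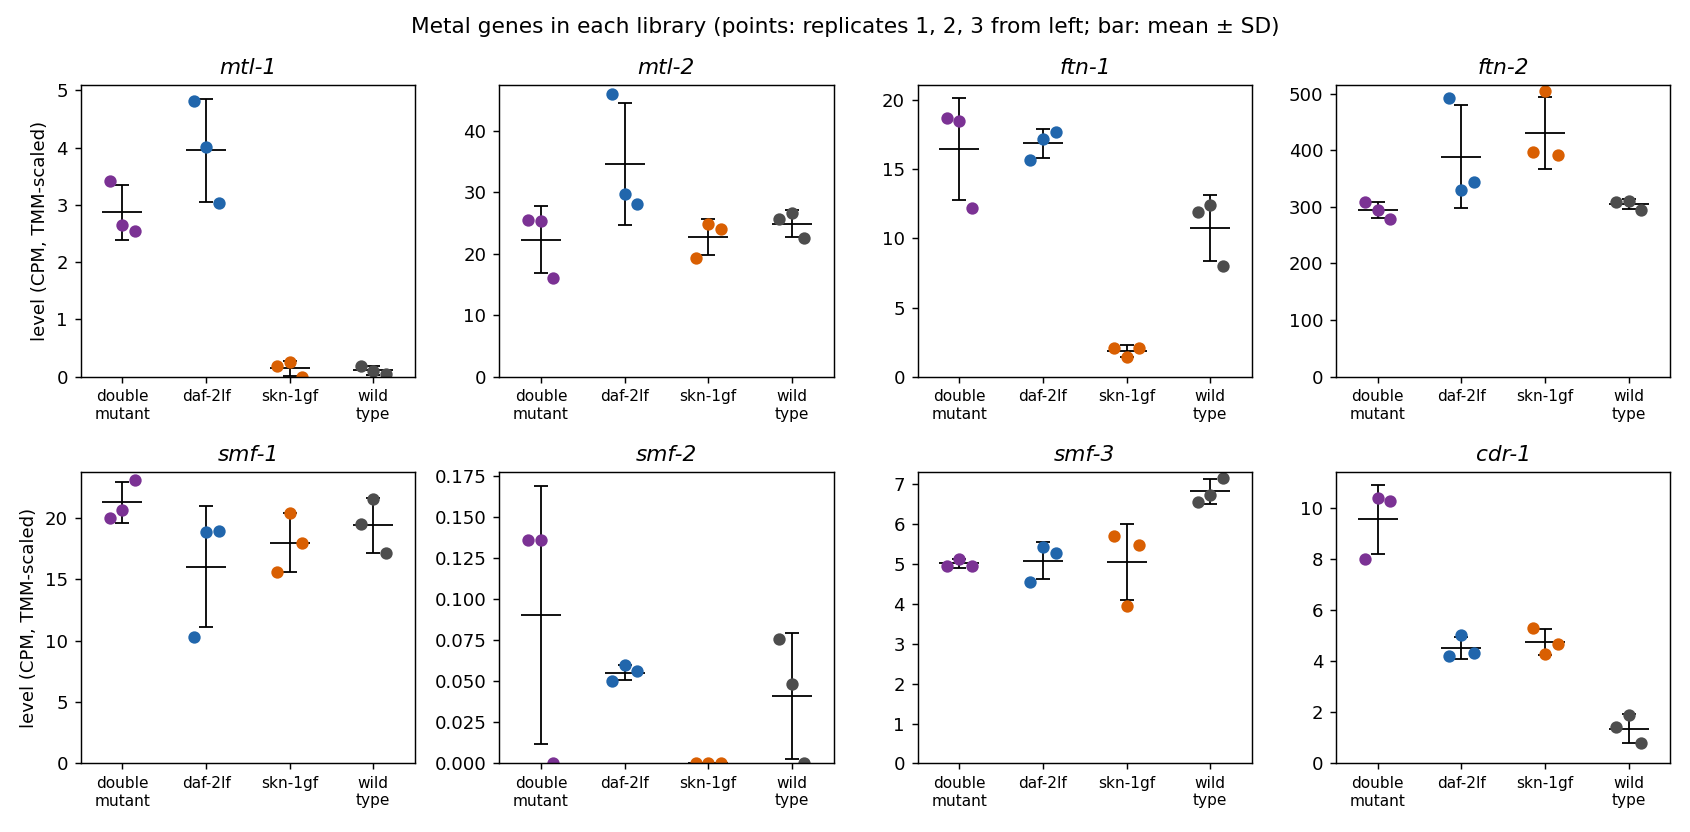
Level of each of the 8 genes in every library, in CPM on its own vertical axis, with the genotypes from left to right as double mutant, daf-2lf, skn-1gf and wild type. Points are the 3 replicates and bars the mean with its SD. The 3 libraries of skn-1gf lie lowest for ftn-1, at 1.40 to 2.11 CPM, and mtl-1 is near 0 in skn-1gf and wild type.

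Against wild type, mtl-1, ftn-1 and cdr-1 rose in the double mutant and in daf-2lf, whereas in skn-1gf ftn-2 and cdr-1 rose and ftn-1 fell. The 3 members called in daf-2lf, of 7 tested, were all higher and stand beside 52.3% of all tested genes called in that comparison, 29.5% higher and 22.9% lower. For skn-1gf against wild type the count was 3 of 7, 2 higher and 1 lower, beside 43.6% of all tested genes, 22.6% higher and 21% lower. In the double mutant against wild type it was 3 of 7, all higher, beside 47.3%, 26.2% higher and 21.1% lower. These shares are near the background, so the group as a whole does not stand out by its number of calls, and the 3 comparisons share the same wild-type libraries. The median log2 change of the 7 genes was 0.13 in the double mutant, 0.47 in daf-2lf and -0.11 in skn-1gf, where the medians over all tested genes were 0.076, 0.145 and 0.025. With the other common scaling, relative log expression (RLE), the medians over all genes shifted to -0.11, -0.03 and -0.13, so small changes have to be read against that shift. The share of calls that were higher, over all genes, was 55.3% in the double mutant, 56.3% in daf-2lf and 51.8% in skn-1gf with TMM, and 43.5%, 45.2% and 40.4% with RLE, and for the interaction 35.8% and 48.3%. With RLE the members' calls against wild type were 2 higher and 1 lower in the double mutant, 2 and 1 in daf-2lf, and 1 and 2 in skn-1gf.

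Within the daf-2lf background, the comparison the study set out to make, the edgeR test called 0 of the 7 genes between the double mutant and daf-2lf, beside 1.62% of all tested genes, 1.01% higher and 0.616% lower. At an unadjusted p under 0.05 there were 3, namely mtl-2 and ftn-2, which were lower, and cdr-1, which was higher. At that threshold 2317 of the 15575 tested genes passed. DESeq2 and limma-voom each called 1 of the members, cdr-1, where they called 550 and 2113 genes in all. The double mutant differed from skn-1gf in 4 of the 7 genes, beside 31.7% of all tested genes (13.4% higher and 18.4% lower), with mtl-1, ftn-1 and cdr-1 higher and ftn-2 lower. The interaction is the change of the double mutant against daf-2lf minus the change of skn-1gf against wild type. It was called for both ferritin genes and no other member, 2 of 7 beside 27.7% of all tested genes. It was higher for ftn-1, beside 9.91% of tested genes, and lower for ftn-2, beside 17.7%.

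**Figure D2:**
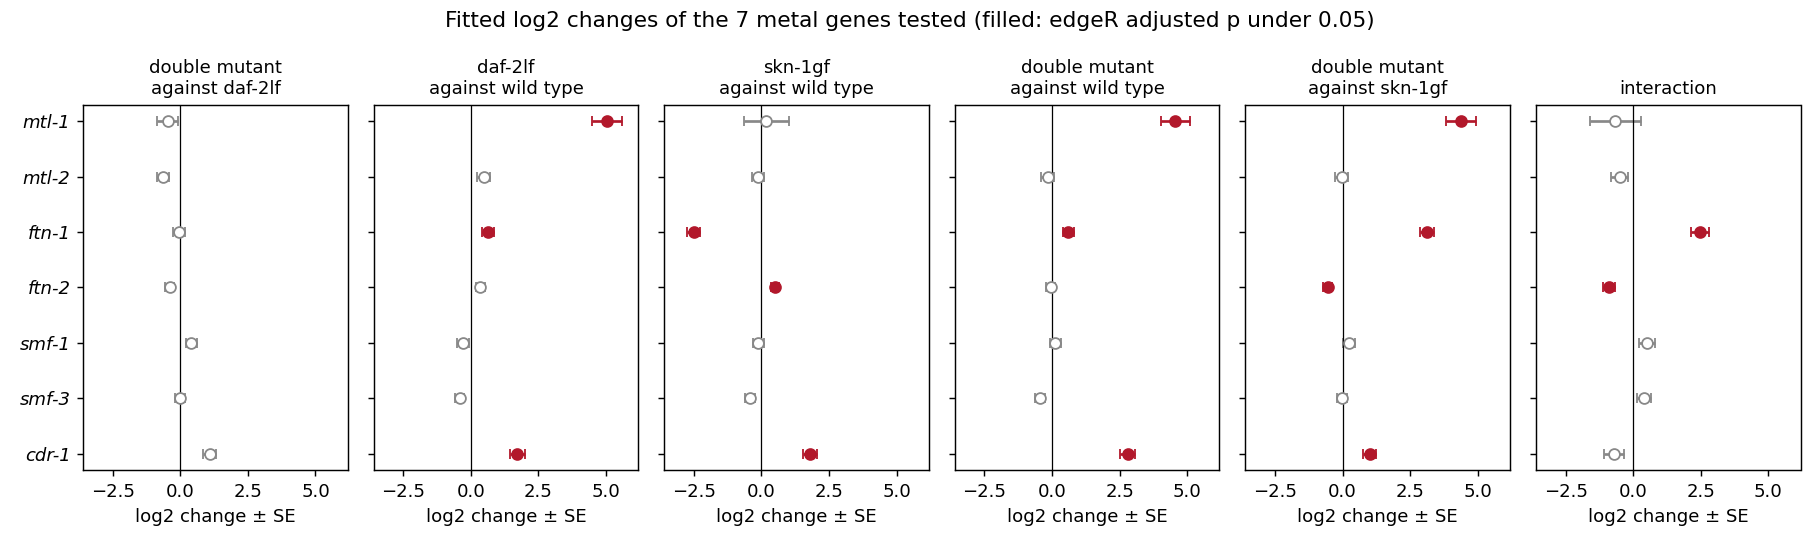
Fitted log2 changes of the 7 tested genes in each of the 6 comparisons, with error bars of 1 SE on a common axis in log2 units and filled points for an edgeR adjusted p under 0.05. For ftn-1 the change of skn-1gf against wild type lies at -2.51 and the interaction at 2.48, while no point is filled for the double mutant against daf-2lf.

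Of the metallothionein genes, mtl-1 (identifier 179060, WBcel235 chromosome V, 6691371 to 6691863 on the minus strand, 373 bases in 2 exons) was present in both genotypes with daf-2lf and near the detection floor in the other 2. It had 3.41, 2.64 and 2.55 CPM in the double mutant and 4.82, 4.01 and 3.03 CPM in daf-2lf. It had 0.18, 0.255 and 0 CPM in skn-1gf, and 0.189, 0.0963 and 0.0462 CPM in wild type. All 6 libraries with daf-2lf lay above all 6 without it. The counts behind these levels were 206 in the double mutant, 217 in daf-2lf, 8 in skn-1gf and 8 in wild type, so the low groups set the precision. From these counts the level was 34.3 times as high in daf-2lf as in wild type (95% counting interval 17.1 to 80.4), with an edgeR adjusted p of 1.15e-05. In worms with both mutations the level was 24.4 times that of wild type (12.2 to 57.3, edgeR adjusted p = 2.47e-05) and 22 times that of skn-1gf (11 to 51.6, edgeR adjusted p = 5.17e-05). These 3 calls were made in each of the 21 alternative settings run.

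The skn-1gf mutation had no called effect on mtl-1 in either background. Between skn-1gf and wild type the ratio of levels was 1.11, with a counting interval of 0.363 to 3.39. Such intervals hold counting error only and leave out the spread between libraries. The fitted change was 0.18 log2 (SE 0.83, edgeR adjusted p = 0.879), which is too imprecise to show a small effect. The double mutant stood at -0.47 log2 against daf-2lf (SE 0.38, edgeR adjusted p = 0.545), with double-mutant libraries that overlapped those of daf-2lf. From the summed counts this ratio was 0.712, and its counting interval of 0.586 to 0.866 again leaves out the spread between libraries.

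The second metallothionein gene, mtl-2 (identifier 179899, chromosome V, 14018270 to 14018673, minus strand, 347 bases in 2 exons), was not called in any comparison. It had 25.5, 25.4 and 16.1 CPM in the double mutant and 46, 29.7 and 28.1 CPM in daf-2lf. In skn-1gf it had 19.4, 24.9 and 24 CPM, and in wild type 25.7, 26.6 and 22.5 CPM. All 3 daf-2lf libraries lay above all libraries of the other genotypes. The double mutant was at -0.64 log2 against daf-2lf (SE 0.23, edgeR adjusted p = 0.232), at -0.37 log2 without daf-2lf replicate 1 and at -0.08 log2 with the length trend. For daf-2lf against wild type the value was 0.47 log2 (SE 0.23, edgeR adjusted p = 0.099). It was 0.11 log2 without daf-2lf replicate 1 and 0.04 log2 with the length trend. Of metallothionein transcripts per unit length, mtl-1 made up 8.82% to 12.9% in the double mutant, 8.87% to 11.2% in daf-2lf, 0% to 0.945% in skn-1gf and 0.191% to 0.679% in wild type.

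The ferritin gene ftn-1 (identifier 179138, chromosome V, 7546468 to 7547579, minus strand, 606 bases in 3 exons) fell in skn-1gf but not when daf-2lf was also present. It had 18.7, 18.5 and 12.2 CPM in the double mutant and 15.7, 17.2 and 17.7 CPM in daf-2lf. In skn-1gf it had 2.07, 1.4 and 2.11 CPM, against 11.9, 12.4 and 8.04 CPM in wild type. The skn-1gf libraries lay below every library of the other genotypes, by a wide margin. The change in skn-1gf against wild type was -2.51 log2 (SE 0.25), 5.71-fold lower, with an edgeR adjusted p of 1.33e-05. Worms with both mutations had 8.71-fold more than skn-1gf, 3.12 log2 (SE 0.25, edgeR adjusted p = 1.7e-06). Between the double mutant and daf-2lf the difference was -0.04 log2 (SE 0.22, edgeR adjusted p = 0.968), and the libraries overlapped.

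The difference between these skn-1gf effects was itself tested. The interaction of ftn-1 was 2.48 log2 (SE 0.33, edgeR adjusted p = 0.000334), and it was called in each of the 20 alternative settings run, between 2.32 and 3.06. The fall in skn-1gf was likewise called in each of 21, between -2.79 and -2.36. Summed levels of 6 hypodermis markers were also low in skn-1gf, at 2453 to 3371 CPM in the double mutant, 2973 to 4734 in daf-2lf, 597 to 842 in skn-1gf and 3584 to 3947 in wild type, and none of the 6 was at 0 counts in any genotype. Of these markers, 4 were lower and 1 higher in skn-1gf against wild type. Sums of the 9 intestine markers went the other way, at 9752 to 12089.7 CPM in skn-1gf and 5976 to 6885 CPM in wild type. Of those 9, 5 were higher and 1 lower in skn-1gf, where 22.6% and 21% of all tested genes were. The part of either class in the result was not tested.

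Smaller rises of ftn-1 were called against wild type in both genotypes with daf-2lf. The double mutant was 0.61 log2 higher (SE 0.22, edgeR adjusted p = 0.0406), although its lowest library, at 12.2 CPM, lay below the highest wild-type library, at 12.4 CPM. For daf-2lf the rise over wild type was 0.64 log2 (SE 0.22, edgeR adjusted p = 0.0294), with no overlap. The call in the double mutant was lost in 13 of 21 alternative settings and that in daf-2lf in 10 of 21. Without wild type replicate 3 the values were 0.43 log2 in the double mutant (adjusted p = 0.161) and 0.47 log2 in daf-2lf (adjusted p = 0.121), and without daf-2lf replicate 1 they were 0.50 (0.0594) and 0.59 log2 (0.0514). Leaving out wild type replicate 1, skn-1gf replicate 1, double mutant replicate 1 or double mutant replicate 2 also ended the call in the double mutant, at 0.68, 0.58, 0.51 and 0.52 log2, and leaving out daf-2lf replicate 2 or 3 ended that in daf-2lf, at 0.63 and 0.60 log2. With the length trend the daf-2lf value was 0.23 log2 (edgeR adjusted p = 0.501).

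The more abundant ferritin gene, ftn-2 (identifier 171934, chromosome I, 3680180 to 3680927, minus strand, 651 bases in 3 exons), went the other way from ftn-1 in skn-1gf. It had 308, 295 and 279 CPM in the double mutant and 493, 329 and 344 CPM in daf-2lf. In skn-1gf it had 397, 504 and 391 CPM, against 309, 310 and 295 CPM in wild type. The lowest skn-1gf library was above the highest one of the double mutant and of wild type. The rise in skn-1gf over wild type was 0.50 log2 (SE 0.16, edgeR adjusted p = 0.0285). Against skn-1gf the double mutant fell, at -0.55 log2 (SE 0.16, edgeR adjusted p = 0.0227). It was -0.40 log2 against daf-2lf (SE 0.16, edgeR adjusted p = 0.288), with no overlap. That last difference was -0.06 log2 with the length trend and -0.19 log2 without daf-2lf replicate 1.

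The interaction of ftn-2 was -0.90 log2 (SE 0.23, edgeR adjusted p = 0.0149), opposite in sign to that of ftn-1. It was -0.60 log2 without daf-2lf replicate 1 (adjusted p = 0.00869), and the length trend ended the call at -0.28 log2 (adjusted p = 0.2). The rise in skn-1gf was lost in 9 of 21 settings, among them RLE scaling at 0.34 log2 (adjusted p = 0.109), the length trend at 0.22 log2 (adjusted p = 0.123), and the fits without skn-1gf replicate 2, at 0.37 log2, or without wild type replicate 1, 2 or 3, at 0.51, 0.51 and 0.48 log2. The call against skn-1gf was lost without skn-1gf replicate 2, at -0.46 log2, and without double mutant replicate 1, 2 or 3, at -0.59, -0.55 and -0.52 log2, with adjusted p-values up to 0.0833. Of ferritin transcripts per unit length, ftn-1 made up 4.48% to 6.29% in the double mutant, 3.30% to 5.30% in daf-2lf, 0.299% to 0.577% in skn-1gf and 2.85% to 4.11% in wild type. How the authors counted reads that match several genes is not stated, so reads shared between these paralogues would leave the counts of ftn-1 uncertain.

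**Figure D3:**
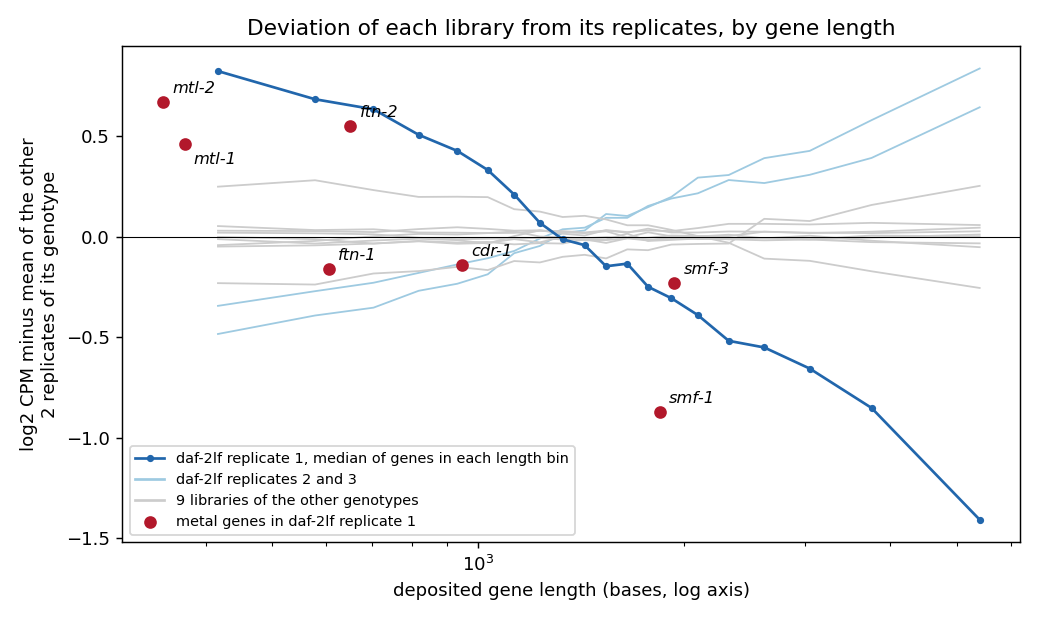
Median log2 deviation of each library from the other replicates of its genotype, for genes in bins of length in bases on a log axis, with daf-2lf replicate 1 as a dark line and the members' own deviations in that library as labelled points. Short genes lie above 0 and long genes below 0 in that library, and the points of mtl-2, at 0.67, and ftn-2, at 0.55, lie on the same side as genes of like length, whose medians were 0.86 and 0.64.

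Departures of daf-2lf replicate 1 from the other daf-2lf libraries bear on several of the genes. In that library mtl-2 was 0.67 log2 and ftn-2 0.55 log2 above the other daf-2lf libraries, and genes of like length were at a median of 0.86 and 0.64 log2. The longer smf-1 was -0.87 log2 there, against -0.26 log2 for genes of its length. For ftn-1 the departure was -0.16 log2 and for cdr-1 -0.14 log2, both below genes of like length, whose medians were 0.67 and 0.36 log2.

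The importer genes smf-1, smf-2 and smf-3 were not called in any comparison. The gene smf-1 (identifier 180939, chromosome X, 6719669 to 6723066, minus strand, 1843 bases in 10 or 11 exons) encodes a transporter that moves manganese across intestinal and other membranes. It had 20, 20.6 and 23.1 CPM in the double mutant, 10.3, 18.8 and 18.9 CPM in daf-2lf, 15.6, 20.4 and 17.9 CPM in skn-1gf, and 19.5, 21.5 and 17.1 CPM in wild type. The lone low value was that of daf-2lf replicate 1. The double mutant was 0.41 log2 above daf-2lf (SE 0.22, edgeR adjusted p = 0.404), and 0.17 log2 above it without that library.

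The intestinal importer gene smf-3 (identifier 177044, chromosome IV, 2618869 to 2625503, plus strand, 1935 bases in 11 or 12 exons) was highest in wild type. It had 4.96, 5.14 and 4.96 CPM in the double mutant, 4.56, 5.44 and 5.27 CPM in daf-2lf, 5.71, 3.96 and 5.47 CPM in skn-1gf, and 6.57, 6.74 and 7.16 CPM in wild type. Every wild-type library lay above every mutant library. The differences from wild type were -0.44 log2 in the double mutant (SE 0.18, edgeR adjusted p = 0.0592), -0.42 log2 in daf-2lf (SE 0.18, adjusted p = 0.0669) and -0.43 log2 in skn-1gf (SE 0.18, adjusted p = 0.071). With RLE scaling all 3 passed, at -0.62, -0.60 and -0.58 log2 and adjusted p-values of 0.0138, 0.0164 and 0.0217. Over 21 alternative settings the differences passed in 9 for the double mutant and in 6 each for daf-2lf and skn-1gf. The fits that left out skn-1gf replicate 2 made calls in the double mutant, at -0.47 log2, and in daf-2lf, at -0.45 log2. Those without daf-2lf replicate 1 made calls in the double mutant, at -0.55 log2, and in skn-1gf, at -0.52 log2, and the fit without skn-1gf replicate 3 in the double mutant, at -0.45 log2.

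The third importer gene, smf-2 (identifier 191766, chromosome X, 6716195 to 6718695, minus strand, 1829 bases in 12 exons), had 12 counts over all 12 libraries. They were 3, 3 and 0 in the double mutant, 1, 1 and 1 in daf-2lf, 0, 0 and 0 in skn-1gf, and 2, 1 and 0 in wild type. None of these libraries exceeded 3 counts, so no difference between genotypes can be read from them. The gene lies 973 bases from smf-1 on the same strand, and it shares 163 bases with nas-11 on the opposite strand, which had 14564 counts, so even these few counts are uncertain where the strand was not stated.

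The cadmium-responsive gene cdr-1 (identifier 180064, chromosome V, 15921309 to 15922820, plus strand, 948 bases in 6 exons) rose with each mutation and was highest in the double mutant. It had 8, 10.4 and 10.3 CPM in the double mutant, 4.21, 5.02 and 4.32 CPM in daf-2lf, 5.3, 4.28 and 4.68 CPM in skn-1gf, and 1.44, 1.88 and 0.786 CPM in wild type. The libraries of daf-2lf and of skn-1gf overlapped each other, and lay between those of wild type and those of the double mutant. Against wild type, cdr-1 was 6.97-fold higher in the double mutant (2.80 log2, SE 0.27, edgeR adjusted p = 3.93e-06), 3.30-fold higher in daf-2lf (1.72 log2, SE 0.27, adjusted p = 0.000244) and 3.48-fold higher in skn-1gf (1.80 log2, SE 0.27, adjusted p = 0.00032).

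Levels of cdr-1 in the double mutant were also above those in skn-1gf, by 1.00 log2 (SE 0.25, edgeR adjusted p = 0.00807), and all 4 of these calls were made in each of the 21 alternative settings. It was 1.08 log2 higher than in daf-2lf (SE 0.25), with no overlap, but the edgeR adjusted p of 0.0589 missed the threshold. That difference kept between 1.01 and 1.19 log2 over the 21 settings, and 6 of them called it, including DESeq2 (adjusted p = 0.000594), the length trend (0.0308) and the fits without wild type replicate 2 (0.0472) or 3 (0.0227). The interaction of cdr-1 was -0.72 log2 (SE 0.37, edgeR adjusted p = 0.16).

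To set the 8 genes in context, 63 further genes of zinc, cadmium, iron, heme and copper handling and their regulators were examined, of which 62 were in the table and 57 were tested. In daf-2lf against wild type 23 rose and 6 fell, and in skn-1gf 21 rose and 4 fell. In the double mutant against wild type 20 rose and 4 fell. Of all tested genes, 26.2% rose and 21.1% fell in the double mutant, 29.5% and 22.9% in daf-2lf, and 22.6% and 21% in skn-1gf. Median log2 changes were 0.20 in the double mutant, 0.29 in daf-2lf and 0.23 in skn-1gf, beside 0.076, 0.145 and 0.025 over all genes. Without daf-2lf replicate 1 the counts were 22 higher and 15 lower in the double mutant, 25 and 15 in daf-2lf, and 23 and 11 in skn-1gf. Calls over all genes rose in that fit too, to 9980 in the double mutant, 9420 in daf-2lf and 9522 in skn-1gf. In the main fit they were 7368, 8152 and 6787. Of the calls without that library, 47.1%, 48.4% and 45.3% were higher. With RLE scaling the list counts were 17 higher and 9 lower in the double mutant, 21 and 10 in daf-2lf, and 17 and 10 in skn-1gf. Over all genes RLE called 7322, 7968 and 6924.

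**Figure D4:**
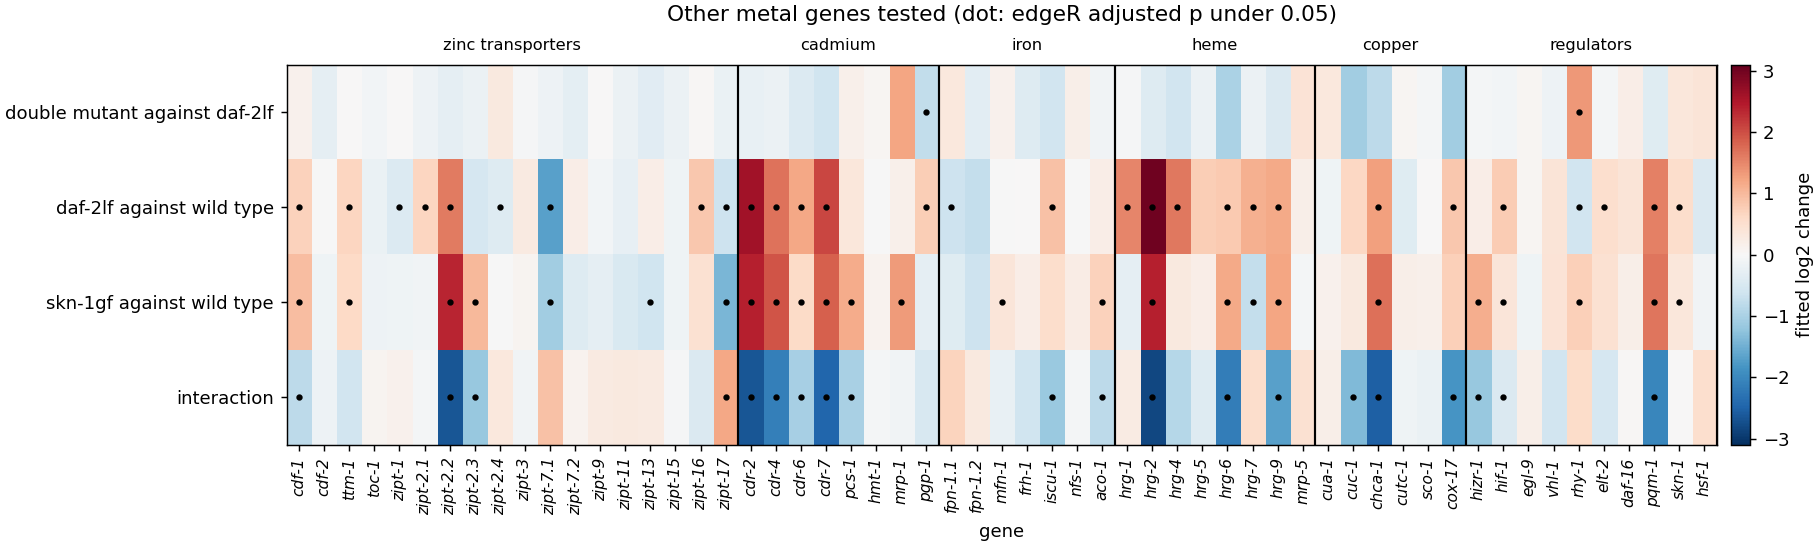
Fitted log2 changes of the 57 other metal genes tested, as colours, with the genes in columns grouped by function and the comparisons in rows. From top to bottom the rows are the double mutant against daf-2lf, daf-2lf against wild type, skn-1gf against wild type, and the interaction. Dots mark an edgeR adjusted p under 0.05. The columns of cdr-2, cdr-4, cdr-6 and cdr-7 are higher in daf-2lf and in skn-1gf against wild type.

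The paralogues cdr-2, cdr-4, cdr-6 and cdr-7 also rose against wild type in all 3 mutant genotypes. For cdr-2 the levels were 59, 66.2 and 61.7 CPM in the double mutant, 92.1, 70.5 and 55.8 in daf-2lf, 69.3, 74.5 and 49.3 in skn-1gf, and 9.45, 14.3 and 12.3 in wild type. The double mutant was no higher than either single mutant, at -0.22 log2 against daf-2lf (SE 0.22, edgeR adjusted p = 0.596) and -0.05 log2 against skn-1gf (SE 0.22, edgeR adjusted p = 0.904). For cdr-4, cdr-6 and cdr-7 the double mutant was likewise not called against daf-2lf, and its libraries overlapped those of daf-2lf. The interaction was called lower for all 4, at -2.65 for cdr-2, -2.13 for cdr-4, -1.03 for cdr-6 and -2.47 log2 for cdr-7, whereas for cdr-1 it was -0.72 log2 and not called. Whether cdr-1 differs from its paralogues in this was not tested, and reads shared within the family could be split between them.

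Between the double mutant and daf-2lf the list held 2 called genes of 57 tested, 1 in each direction, beside 1.62% of all tested genes. The regulator gene rhy-1, which acts in the pathway that holds HIF-1 in check, had 66.1, 59.6 and 60.2 CPM in the double mutant, against 21.1, 30.8 and 21.8 CPM in daf-2lf. All double-mutant libraries lay above all daf-2lf ones, by 1.34 log2 (SE 0.16, edgeR adjusted p = 0.000631). In skn-1gf rhy-1 was 0.75 log2 above wild type (SE 0.16, edgeR adjusted p = 0.00275). Its levels were 59.8 to 65.6 CPM in skn-1gf and 34.5 to 39.5 CPM in wild type, so every daf-2lf library lay below every wild-type one. The transporter gene pgp-1, a P-glycoprotein that protects worms against cadmium, averaged 61.1 ± 4.79 CPM in the double mutant and 104 ± 13.2 CPM in daf-2lf (SD, n = 3 each). It averaged 50.5 ± 2.87 CPM in skn-1gf and 61 ± 8.17 CPM in wild type, so daf-2lf was the highest group. Against daf-2lf the double mutant was at -0.77 log2, with no overlap (SE 0.15, edgeR adjusted p = 0.0208), but the call was lost without double mutant replicate 1, 2 or 3 and with the compared groups alone, where the list had 1 higher and 0 lower calls.

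Of 8 genes of heme handling tested, 5 were higher in the double mutant, 6 in daf-2lf and 3 in skn-1gf against wild type, where 26.2%, 29.5% and 22.6% of all tested genes were higher, and 1 was lower in skn-1gf. The class was not tested as a set. The heme transporter gene hrg-1 had 22.8, 29.8 and 31.4 CPM in the double mutant, 40.2, 21.5 and 24.3 in daf-2lf, 7.1, 7.79 and 9.65 in skn-1gf, and 9.67, 10.6 and 9.75 in wild type. The double mutant exceeded skn-1gf by 1.77 log2 (SE 0.24, edgeR adjusted p = 8.77e-05), with no overlap. The gene hrg-7, whose product carries a heme signal between tissues, was at -0.74 log2 in skn-1gf against wild type (SE 0.22, edgeR adjusted p = 0.0198), a fall. In the double mutant it was 1.64 log2 above skn-1gf (SE 0.23, edgeR adjusted p = 0.000115). The heme exporter gene mrp-5 was 0.64 log2 higher in the double mutant than in skn-1gf (SE 0.21, edgeR adjusted p = 0.0337). The scarcer hrg-2, a hypodermal heme-binding gene, had 1.32 to 1.82 CPM in the double mutant, 1.85 to 2.19 in daf-2lf, 1.08 to 1.48 in skn-1gf and 0.193 to 0.277 in wild type, and rose 6.15-fold in the double mutant, 8.09-fold in daf-2lf and 5.32-fold in skn-1gf, with an interaction of -2.81 log2 (edgeR adjusted p = 0.000445).

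The zinc transporter genes moved in both directions, with 5 higher and 4 lower of 18 tested in the double mutant against wild type, 5 and 4 in daf-2lf, and 4 and 3 in skn-1gf. These counts lie near the shares of all tested genes. Those were 26.2% higher and 21.1% lower in the double mutant, 29.5% and 22.9% in daf-2lf, and 22.6% and 21% in skn-1gf. The importer-family gene zipt-2.2 rose 5.18-fold in skn-1gf over wild type, with 34.4, 51.8 and 21.9 CPM in skn-1gf against 6.46, 6.98 and 7.4 CPM in wild type (2.37 log2, SE 0.30, edgeR adjusted p = 7.29e-05). The gene also lay above every wild-type library in daf-2lf, at 15 to 26.8 CPM, and in the double mutant, at 16.1 to 19.3 CPM. Its level in the double mutant was at -1.05 log2 against skn-1gf (SE 0.28, edgeR adjusted p = 0.0129), and its interaction was -2.65 log2 (SE 0.40, edgeR adjusted p = 0.000765). Another member of the family, zipt-2.3, was 3.23-fold lower in the double mutant than in skn-1gf (-1.69 log2, SE 0.21, edgeR adjusted p = 5.13e-05). Against wild type the double mutant was at -0.69 log2 for zipt-2.3 (SE 0.21, edgeR adjusted p = 0.0178). Mean levels of zipt-2.3 were 3.84 CPM in the double mutant, 4.34 in daf-2lf, 12.4 in skn-1gf and 6.21 in wild type. The family members zipt-7.1 and zipt-17 fell in all 3 mutant genotypes, zipt-7.1 by -1.85 log2 in the double mutant, -1.68 in daf-2lf and -1.07 in skn-1gf. For zipt-17 the change was -0.85 log2 in the double mutant (adjusted p = 0.0143), -0.64 in daf-2lf (0.0498) and -1.41 in skn-1gf (0.0012), and its interaction of 1.2 log2 (adjusted p = 0.0292) was the 1 called higher. Of the 6 copper genes, 2 rose in daf-2lf and 1 in skn-1gf against wild type, beside 29.5% and 22.6% of all tested genes. The copper-related gene chca-1 was at -1.25 log2 in the double mutant against skn-1gf (SE 0.27, edgeR adjusted p = 0.00362), and the heme gene hrg-6 at -1.34 log2 (SE 0.24, edgeR adjusted p = 0.000905).

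The iron and zinc regulators were read beside the ferritins, and their part in the ferritin results was not tested. Of 10 regulator genes tested against wild type, 5 were higher in the double mutant, 4 in daf-2lf and 5 in skn-1gf. In daf-2lf 1 was lower. Of all tested genes, 26.2%, 29.5% and 22.6% were higher. The gene hif-1, for the hypoxia factor, had 362, 369 and 358 CPM in the double mutant, 394, 395 and 357 in daf-2lf, 305, 290 and 266 in skn-1gf, and 214, 224 and 228 in wild type. Against wild type it rose in the double mutant by 0.71 log2 (SE 0.11, edgeR adjusted p = 0.00019), in daf-2lf by 0.78 log2 (SE 0.11, adjusted p = 8.75e-05) and in skn-1gf by 0.37 log2 (SE 0.11, adjusted p = 0.017). The aconitase gene aco-1, the worm counterpart of the mammalian iron regulatory protein, had 723, 758 and 702 CPM in skn-1gf and 429.6, 427 and 472 CPM in wild type. It rose by 0.72 log2 in skn-1gf (SE 0.14, edgeR adjusted p = 0.00157) and was 0.10 log2 in the double mutant over wild type (SE 0.14, adjusted p = 0.58). Libraries of daf-2lf had 447 to 619 CPM of aco-1. The zinc sensor gene hizr-1, a nuclear receptor that switches on zinc genes, rose by 1.12 log2 in skn-1gf over wild type (SE 0.22, edgeR adjusted p = 0.00193), and was 0.14 log2 in the double mutant (SE 0.22, adjusted p = 0.63). Its levels were 3.01 to 4.88 CPM in daf-2lf, 6.13 to 8.94 in skn-1gf and 3.17 to 3.85 in wild type. The iron exporter gene fpn-1.1 was at -0.63 log2 in daf-2lf against wild type (SE 0.17, edgeR adjusted p = 0.00896), a fall.

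Over the list, the interaction was lower for 19 and higher for 1 of the 57 tested genes, beside 17.7% lower and 9.91% higher of all tested genes. It was lower for 20 and higher for 9 without daf-2lf replicate 1, lower for 13 and higher for 0 without wild type replicate 1, and lower for 14 and higher for 3 with RLE scaling. The list's median interaction was -0.20 log2, and that over all tested genes was -0.046 log2. Set against skn-1gf, the double mutant had 6 list genes higher and 8 lower, beside 13.4% higher and 18.4% lower of all tested genes. Without daf-2lf replicate 1 the list counts were 11 and 16, and calls over all genes rose from 4944 to 7318. Without double mutant replicate 3 there were 9 list calls, and 3850 over all genes.

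Cell-type markers also differed between the genotypes. Sums of the 9 intestine markers were 11109 to 13131 CPM in the double mutant, 10475 to 17396 in daf-2lf, 9752 to 12089.7 in skn-1gf and 5976 to 6885 in wild type. Of these markers, 4 rose in the double mutant, 7 in daf-2lf and 5 in skn-1gf against wild type, and 1 fell in skn-1gf. Over all tested genes 26.2%, 29.5% and 22.6% rose in these comparisons, and 21.1%, 22.9% and 21% fell. Sperm markers summed to 3.41 to 4.36 CPM in the double mutant, 1.96 to 2.97 in daf-2lf, 134 to 286 in skn-1gf and 543 to 649 in wild type, and the genes msp-3, msp-10, msp-19 and msp-56 were at 0 counts in both genotypes with daf-2lf. Sums of germ line and oocyte markers were 504 to 538 CPM in the double mutant, 275 to 523 in daf-2lf, 329 to 975 in skn-1gf and 1320.4 to 1445 in wild type. Of the 10 germ line and oocyte markers, 9 fell in each mutant genotype against wild type. The intestine, sperm and germ line markers moved with the comparisons against wild type, and their part in the results for mtl-1, ftn-1, ftn-2 and cdr-1 was not tested. Between the double mutant and daf-2lf, edgeR called 1 of all the intestine, germ line and sperm markers, a sperm gene. Sums of 6 neuron markers were 504 to 519 CPM in the double mutant, 487 to 551 in daf-2lf, 389.8 to 447 in skn-1gf and 268 to 302 in wild type. Against wild type 5 of them rose in the double mutant, 6 in daf-2lf and 5 in skn-1gf. The 6 body muscle markers summed to 8864 to 13671 CPM over all libraries. The 3 pharynx markers summed to 324 to 551 CPM in the double mutant, 217 to 424 in daf-2lf, 40.2 to 485 in skn-1gf and 239 to 319 in wild type, and the 2 coelomocyte markers to 12.6 to 20.4 CPM over all libraries.

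Patterns most like those of the 7 tested genes were sought by the Pearson correlation of log2 CPM over the 12 libraries, which fall into 4 genotypes. For mtl-1 the closest protein-coding genes were scrm-4 (r = 0.988) and C08E8.4 (r = 0.981). For ftn-1 they were T24C2.5 (r = 0.972) and dod-3 (r = 0.971), and for ftn-2 C29F7.3 (r = 0.982) and ril-1 (r = 0.980). The gene cdr-1 was closest to dex-1 (r = 0.960) and T03F6.4 (r = 0.955). The likest to mtl-2 were T06E6.10 (r = 0.887) and C56A3.4 (r = 0.880), those to smf-1 were cup-5 (r = 0.957) and rhgf-1 (r = 0.954), and those to smf-3 were scc-1 (r = 0.923) and gpr-2 (r = 0.913).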

How the data were processed

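The deposited file is 1 table of raw counts, whole numbers for each gene in 12 libraries. Per the labels, worms were lysed in TRIzol and an outside company built the libraries. The submitters' processing notes name ce10, while the chromosome versions and coordinates in the table are those of WBcel235: 46920 of 46936 identifiers matched RefSeq's WBcel235 gene table, 45476 of them with identical coordinates. The aligner, counter, strand setting and treatment of multi-mapping reads are not given in the sources used here. No per-sample column was left unused (0).

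Counts were analysed in R 4.3.3 with edgeR 4.0.16. The filter filterByExpr (minimum count 10) kept 15575 genes, and libraries were scaled by TMM. All 12 libraries entered a single fit with genotype as its only term, tested with the quasi-likelihood F test and Benjamini-Hochberg adjusted over all tested genes (threshold 0.05). Each SE is the fitted change divided by the square root of its F. CPM is the count over the TMM-scaled library total, times 1e6. Ratios of mtl-1 counts carry 95% exact intervals. These and the floor of 3 counts cover counting error only. Log2 CPM for correlations used a prior count of 2 and a mean of at least 1. DESeq2 1.42.0 and limma 3.58.1 were alternatives. Others were other scalings, no or another filter, a replicate block, the compared groups alone, each library left out in turn, and a per-library length trend (spline with 5 degrees of freedom). The procedure was tested on simulated counts.

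The members, the lists of metal genes and markers, and the rule for naming genes were chosen with earlier results of these data known. Of the list, each comparison names up to 3 called genes per direction by size of change, and the 2 genes most like each member are named. The genes cdr-4, cdr-6, cdr-7, hif-1, aco-1 and hizr-1 were added after their values were seen.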

Additional observations from a re-analysis of the deposited data

Results flagged for a closer look

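For 2 genes the effect of skn-1gf differed between the daf-2lf and wild-type backgrounds in a direct test. The ftn-1 interaction was 2.48 log2 (SE 0.33, edgeR adjusted p = 0.000334), with -0.04 log2 in the double mutant against daf-2lf and -2.51 log2 in skn-1gf against wild type. The ftn-2 interaction was -0.90 log2 (SE 0.23, edgeR adjusted p = 0.0149), with -0.40 log2 in the double mutant against daf-2lf and 0.50 log2 in skn-1gf against wild type. The ftn-2 value was -0.28 log2 with the length trend, where it was not called, and the part of daf-2lf replicate 1 in it is given by the -0.60 log2 without that library.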

How the results depend on the processing

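For the 15 member results called in the main analysis, 276 of 313 values from alternative settings were called in the same direction, 37 missed the threshold and 0 changed sign. For the 27 not called, 504 of 561 values stayed so, 33 passed and 24 changed sign. Of the members, the double mutant against daf-2lf had 1 call with no filter, DESeq2, limma-voom or the length trend, and 0 to 1 with 1 library left out. It was 5 for skn-1gf against wild type with limma-voom, and 4 for the interaction with limma-voom and 1 with the length trend. With the length trend, uncalled differences changed sign between the double mutant and daf-2lf for mtl-1 (0.06) and ftn-1 (0.27), in daf-2lf against wild type for ftn-2 (-0.1), in skn-1gf against wild type for mtl-1 (-0.11), between the double mutant and wild type for smf-1 (-0.07), between the double mutant and skn-1gf for mtl-2 (0.37), and in the interaction for mtl-1 (0.16) and mtl-2 (0.33). For smf-1 in the double mutant against wild type RLE and DESeq2 gave -0.05, and for mtl-2 in the double mutant against skn-1gf limma-voom gave 0.2. With 1 library left out, the ranges that crossed 0 were -0.09 to 0.03 for smf-3 and -0.14 to 0.14 for ftn-1 in the double mutant against daf-2lf, -0.39 to 0.85 for mtl-1 in skn-1gf against wild type, -0.27 to 0.03 for mtl-2 in the double mutant against wild type, and -0.16 to 0.16 for mtl-2 and -0.19 to 0.06 for smf-3 in the double mutant against skn-1gf. The cause was not tested. The 57 list genes gave 14 calls with limma-voom, 7 with DESeq2 and 4 without daf-2lf replicate 1, and 1 without each of the double mutant replicates or with the compared groups alone, in the double mutant against daf-2lf, 46 each for skn-1gf and the double mutant against wild type, 36 for the double mutant against skn-1gf and 38 for the interaction with limma-voom. Without daf-2lf replicate 1 there were 37 for the double mutant against wild type and 27 against skn-1gf, and with the compared groups alone 42 and 24. Over all genes the calls were 9980 and 7318 without that library, and 11113 and 6147 with the compared groups alone. Without double mutant replicate 3 there were 9 list calls against skn-1gf, and without wild type replicate 1 13 for the interaction. With limma-voom the calls over all genes were 2113 in the double mutant against daf-2lf. They were 11743 in skn-1gf and 12047 in the double mutant against wild type, 10101 for the double mutant against skn-1gf and 9444 for the interaction. In the main fit these were 253, 6787, 7368, 4944 and 4308 of 15575 tested genes. Same-numbered libraries were not shown to be paired: over 18 pairs the correlation of their deviations ran from -0.129 to 0.296, with 2 over 0.1. With the replicate block the double mutant against wild type gave 2 calls among the members, since ftn-1 was 0.61 log2 with an adjusted p of 0.0504, and the other 5 comparisons gave 0, 3, 3, 4 and 2. At these depths mtl-1 in skn-1gf and wild type, and smf-2 in all genotypes, lie at or near the floor.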

Other observations

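Genes beside cdr-1 and mtl-1 were looked at after their values were seen. The neighbour of cdr-1 on its 5′ side, F35E8.10, lies 935 bases away on the opposite strand, and its product carries an ShK domain per the deposited annotation. It had 0.728, 1.27 and 0.593 CPM in the double mutant, 0.15, 0.12 and 0 CPM in daf-2lf, 0.045, 0 and 0.207 CPM in skn-1gf, and 0.0756, 0 and 0.324 CPM in wild type. Every double-mutant library lay above every library of the other genotypes. Its level in the double mutant was 3.1 log2 above skn-1gf (SE 0.87, edgeR adjusted p = 0.0161) and 2.65 log2 above wild type (SE 0.81, adjusted p = 0.0167), and its 3.15 log2 over daf-2lf was not called (SE 0.90, adjusted p = 0.142). The low groups rest on at most 7 counts per library. On the other side of cdr-1, 221 bases away, nhr-108 rose over wild type by 0.87 log2 in the double mutant (SE 0.24, edgeR adjusted p = 0.0106), 0.88 log2 in daf-2lf (SE 0.25, adjusted p = 0.0099) and 0.80 log2 in skn-1gf (SE 0.25, adjusted p = 0.0206).

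The gene W02F12.8 lies 383 bases from mtl-1 on the same strand and had a pattern of its own. Its levels were 3.09, 4.73 and 4.57 CPM in the double mutant, 15, 7.29 and 6.34 CPM in daf-2lf, 1.17, 0.511 and 0.539 CPM in skn-1gf, and 7.63, 8.77 and 6.52 CPM in wild type. It fell in skn-1gf against wild type, at -3.34 log2 (SE 0.41, edgeR adjusted p = 6.98e-05), where mtl-1 was at 0.18 log2 (SE 0.83, adjusted p = 0.879). Its interaction was 2.13 log2 (SE 0.54, edgeR adjusted p = 0.0134).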
